A study of Ovis aries with 40 samples.

Results

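MANF and 9 chaperones of the endoplasmic reticulum (ER) were examined in the longissimus (LM) muscle of 40 Poll Dorset sheep, the progeny of 6 sires. The 10 genes were chosen by name (MANF, HSPA5, HSP90B1, CALR, CANX, PDIA3, PDIA4, PDIA6, SDF2L1 and DNAJB11), and each gene was represented by its brightest probe set on average over the animals. Of the 10, 9 genes had a probe set annotated with a single symbol, 15 probe sets in all, and PDIA6 had none. All 9 passed the filter on low values, a mean signal of at least 61.8, which is the median over the probe sets of the array other than controls. They are 9 of the 6360 genes detected among 9155 genes measured. The genes were proposed with differences between the muscling groups of these animals already known, so those differences are given for them as a description, with no test.

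One array, the GeneChip Bovine Genome array carrying probes designed on cattle sequence, was hybridised per sheep. The 19 high muscling animals came from sires 11 (n = 8), 2 (n = 7) and 7 (n = 4), classed high for the estimated breeding value of eye muscle depth, a prediction of genetic merit. The 21 low muscling animals came from sires 16 (n = 8), 17 (n = 5) and 5 (n = 8), classed low. All animals were 78 weeks old according to the methods, were raised under the same industry conditions and received no treatment. The progeny of a sire all belong to 1 muscling group, so sire and muscling group cannot be told apart beyond what 3 sires against 3 allow, and the label describes the sire rather than a measurement on the animal. Signals are on a linear scale with each array scaled to the same trimmed mean of 200. A signal depends on the probes as well as on the transcript, so signals of different genes are not ranked against each other.

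The ER folds proteins destined for membranes and secretion. HSPA5 (BiP) is its Hsp70 chaperone and HSP90B1 (GRP94) its Hsp90. DNAJB11 and SDF2L1 are partners of HSPA5. CALR and CANX hold glycoproteins in the calnexin cycle together with the disulphide isomerase PDIA3 (ERp57), and PDIA4 (ERp72) is a further isomerase. MANF is a small soluble protein of the ER lumen that can be secreted, and it binds HSPA5. When unfolded protein accumulates, sensors in the ER membrane start the unfolded protein response (UPR), which raises transcription of chaperones and of MANF. In muscle fibres the sarcoplasmic reticulum, a specialised ER, stores calcium.

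The tissue showed its defining transcripts. All 7 muscle fibre markers measured were detected, with a summed signal of 148966 to 205314 in high muscling and 148581 to 197353 in low muscling animals. Between the groups 0 of the 7 passed the test at an adjusted p under 0.05. Of all genes 5.5% passed as lower and 2.28% as higher in high muscling, so 0 of 7 says little. The median signal of an array was 59.8 to 66.95 in high and 56.1 to 67 in low muscling animals. Pearson r between arrays was 0.873 to 0.952. Progeny 65 of sire 16 (low muscling) stood apart in several of the genes examined. Its array had the lowest median signal of the 40 (56.1), and its median r with the other arrays, 0.928, was within the range of the others (0.925 to 0.943). Results that rest on this animal are given with and without it, a choice made after its values were seen.

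MANF had a signal of 292 to 806 (median 498) in high muscling and of 621 to 1824 (median 902) in low muscling animals. The ranges overlapped in 2 of 19 high and 6 of 21 low muscling animals. Of the 19 high muscling animals 17 lay below every low muscling animal, and of the 21 low muscling animals 15 lay above every high muscling animal. The mean signal was 517 ± 119 (SD, n = 19) against 953 ± 261 (SD, n = 21), a high minus low difference of -0.89 on the log2 scale (SE 0.14), and -0.85 (SE 0.13) without progeny 65 of sire 16. This corresponded to a 1.86-fold higher level in low muscling animals. Over all 6360 genes detected, it was the 57th most negative difference. Over 15 alternative settings, among them leaving out the progeny of each sire, the difference lay between -1.04 and -0.79.

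The order of the families by mean log2 MANF signal was sire 16, 17, 5, 11, 2 and 7, so each low muscling family lay above each high muscling family. The 3 low muscling families had mean signals of 1091 ± 353 (sire 16), 888 ± 143 (sire 17) and 854 ± 150 (sire 5). The 3 high muscling families had 600 ± 117 (sire 11), 468 ± 73.0 (sire 2) and 433 ± 96.2 (sire 7). The step from sire 5 to sire 11, between the groups, was 0.51 on the log2 scale against a pooled SD of 0.27. The step from sire 11 to sire 2 was 0.35 against 0.25. The other 3 steps between neighbours, 0.25, 0.06 and 0.13, were smaller than the pooled SD of the families concerned. In the family of sire 7 the individual signals were 492, 292, 451 and 498, and in that of sire 17 they were 1054, 995, 768, 720 and 902. The lowest animal of all was therefore 1 of the 4 progeny of sire 7, and the highest was progeny 65 of sire 16.

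**Figure D1:**
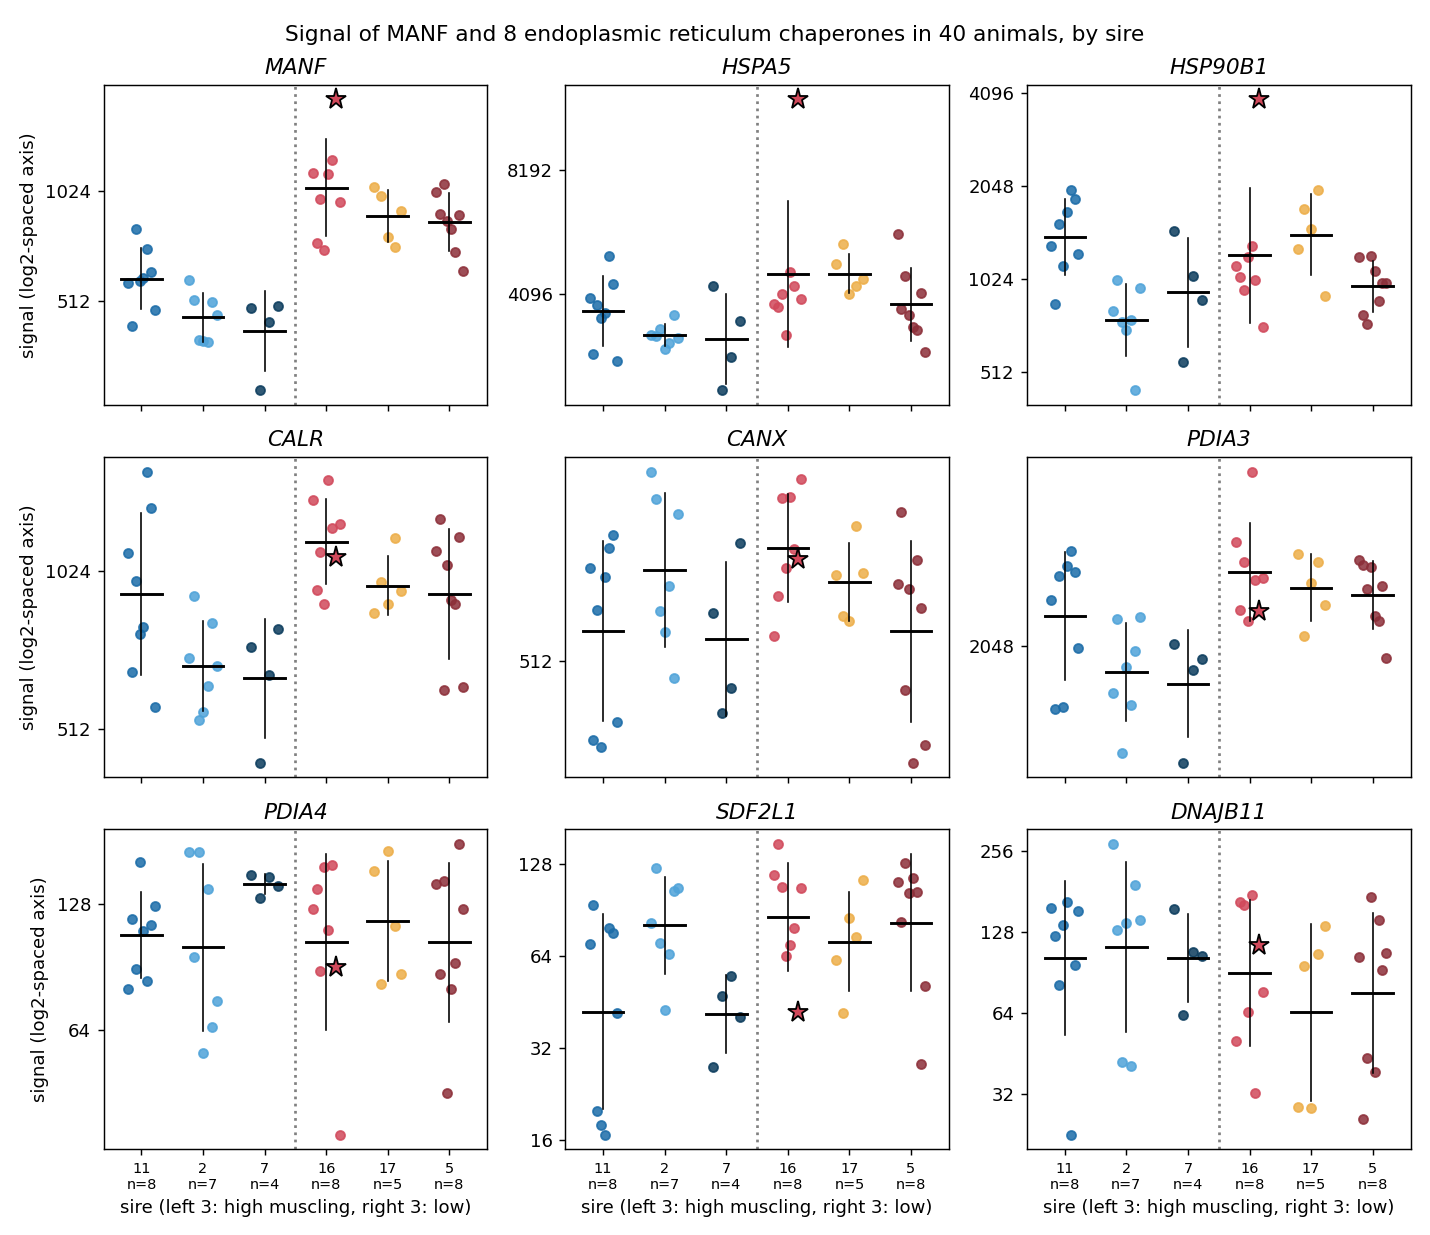
Signal (log2-spaced axis) of MANF and 8 chaperones in each of 40 animals by sire, with sires of high muscling left and of low muscling right of the dotted line. Horizontal bars are means and vertical bars ± 1 SD of log2 signal, and the star is progeny 65 of sire 16. For MANF 17 of 19 high muscling animals lie below every low muscling animal, and 6 of 21 low muscling animals lie within the high muscling range. For PDIA3 9 of 19 high muscling animals lie below every low muscling animal, and for each of the remaining genes 0 to 4 do. No share over all genes is given.

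HSPA5 followed the same order of groups with a smaller difference and broad overlap. Its signal was 2391 to 5080 (median 3366) in high muscling and 2964 to 12150 (median 4097) in low muscling animals. The high minus low difference was -0.34 (SE 0.15, log2), and -0.27 (SE 0.11) without progeny 65 of sire 16. Only 4 high muscling animals lay below all low muscling animals. All 3 low muscling family means nevertheless lay above all 3 high muscling ones, at 12.17 (sire 17), 12.16 (sire 16) and 11.92 (sire 5) against 11.86 (sire 11), 11.67 (sire 2) and 11.64 (sire 7) in log2 signal. None of the steps between neighbouring families exceeded their pooled SD. A separate HSPA5 probe set with a mean signal of 1152 had a difference of -0.25 (SE 0.20). The remaining HSPA5 probe set had a mean signal of 36.8, below the filter.

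The components of the calnexin cycle differed among themselves. PDIA3 had a signal of 1405 to 2784 (median 2016) in high and 1971 to 3595 (median 2506) in low muscling animals, a difference of -0.32 (SE 0.11). CALR had 443 to 1582 (median 736) against 610 to 1524 (median 1053), a difference of -0.44 (SE 0.17). The groups overlapped for both genes. For PDIA3 and CALR, as for MANF and HSPA5, all 3 low muscling family means lay above all 3 high muscling ones, although for CALR the means of sires 5 and 11 were only 0.00105 apart in log2 signal. CANX had 433 to 741 (median 566) in high and 420 to 730 (median 606) in low muscling animals. Its difference was -0.07 (SE 0.10), smaller than its error.

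HSP90B1 had a signal of 447 to 1995 (median 1016) in high and 719 to 3914 (median 1090) in low muscling animals, a difference of -0.22 (SE 0.23) that was no larger than its error. Without progeny 65 of sire 16 it was -0.14 (SE 0.20), and over 15 alternative settings it lay between -0.52 and 0.01. The families of the 2 groups were interleaved, with sire 17 highest, followed by sires 11, 16, 5, 7 and 2. The remaining 3 genes had signals near the detection limit. PDIA4 had 56.4 to 170.9 (median 118) against 35.9 to 178.5 (median 114), a difference of 0.08 (SE 0.24). SDF2L1 had 16.7 to 124.8 (median 65.3) against 28.5 to 149.4 (median 85.8), a difference of -0.60 (SE 0.32). DNAJB11 had 22.5 to 271.4 (median 130.4) against 25.7 to 175.3 (median 95.3), a difference of 0.46 (SE 0.40). Its 3 high muscling family means, 6.67 to 6.81 in log2 signal, lay above its 3 low muscling ones, 6.01 to 6.49, the opposite order to that of MANF. A signal under the limit of 61.8 occurred on 3 of 40 arrays for PDIA4, on 13 for SDF2L1 and on 10 for DNAJB11, and on 0 for each of the other 6 genes.

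Across the 9 genes the median high minus low difference was -0.32, with 7 differences below 0. Over all 6360 genes detected the median was -0.04, with 3551 differences below 0. The genes were chosen with this comparison known, so nothing is read from these values. The same holds for the overlap of the groups and the order of the family means. No share over all genes is given for either. Connective tissue transcripts moved with the same groups. Of 10 fibroblast markers detected, 5 were lower in high muscling animals (COL1A1, COL1A2, COL3A1, DCN and FBN1) and THY1 was higher. The summed signal of the 11 fibroblast markers measured was 6016 to 13901 (median 10025) in high and 9029 to 26268 (median 14906) in low muscling animals, and POSTN was under the detection limit. Within sires, 0 of the 10 fibroblast markers passed the test for a slope on MANF or on HSPA5. Of all genes, 0.708% and 0.692% passed with a positive slope, so 0 of 10 says little. The median r of the markers was 0.07 with MANF and -0.06 with HSPA5. Without progeny 65 of sire 16 it was 0.23 and 0.17, with 8 and 9 of the 10 above 0. Over all 6359 genes, 3106 and 3215 were then above 0. The part of fibroblasts in the group differences was not tested. In RNA from whole muscle, fewer cells of a type and less RNA per cell cannot be told apart.

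The spread among animals also differed between the genes. The SD of log2 signal over 40 animals was 0.56 for MANF, 0.38 for HSPA5, 0.57 for HSP90B1, 0.45 for CALR, 0.28 for PDIA3 and 0.22 for CANX, against a median of 0.38 over all genes detected. With sire means removed, the SD of MANF was 0.31, below the median of 0.34 over all genes, and that of HSPA5 was 0.35. CANX, the membrane-bound lectin, was thus among the least variable genes, at the 9.12th percentile of all genes detected. DNAJB11 and SDF2L1 had SDs of 0.93 and 0.81, at signals near the detection limit.

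Whether families of the same muscling class differed was tested with a moderated F-test (limma, adjusted over 6360 genes). Within high muscling, HSP90B1 was the 1 member of 9 that passed, where 14.2% of all genes did, so the count does not set the members apart. The progeny of sire 11 had HSP90B1 signals of 850 to 1995 (median 1428) and those of sire 2 had 447 to 1016 (median 755). The 4 progeny of sire 7 had 1466, 553, 1047 and 878. The family of sire 11 was high and that of sire 2 low, with overlap (adjusted p = 0.0266, 0.00411 without progeny 65 of sire 16, and 0.00411 to 0.0424 over 12 alternative settings). Sire 11 also had the highest mean of the 3 for MANF, HSPA5, CALR and PDIA3, without passing the test (adjusted p = 0.117, 0.639, 0.108 and 0.161). For PDIA3 it passed after median centring (adjusted p = 0.0469). SDF2L1 had adjusted p = 0.113, with sire 2 highest at a mean signal of 85.4 ± 28.4 against 52.1 ± 31.6 for sire 11 and 42.8 ± 11.7 for sire 7.

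Within low muscling, 0 of the 9 genes passed the F-test, where 10.5% of all genes did, so 0 of 9 says little. At an unadjusted p under 0.05 the count was also 0, and it was 1 without progeny 65 of sire 16. Of all 6360 genes, 1507 had such a p, and 1572 did without that animal. The adjusted p was 0.350 for MANF, 0.351 for HSP90B1 and 0.551 for HSPA5. For HSP90B1 the highest family was sire 17, with individual signals of 1287, 1730, 1488, 1991 and 904. The progeny of sire 5 had 731 to 1221 (median 999), and those of sire 16 without progeny 65 had 719 to 1312 (median 1038). Progeny 65 itself had 3914.

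**Figure D2:**
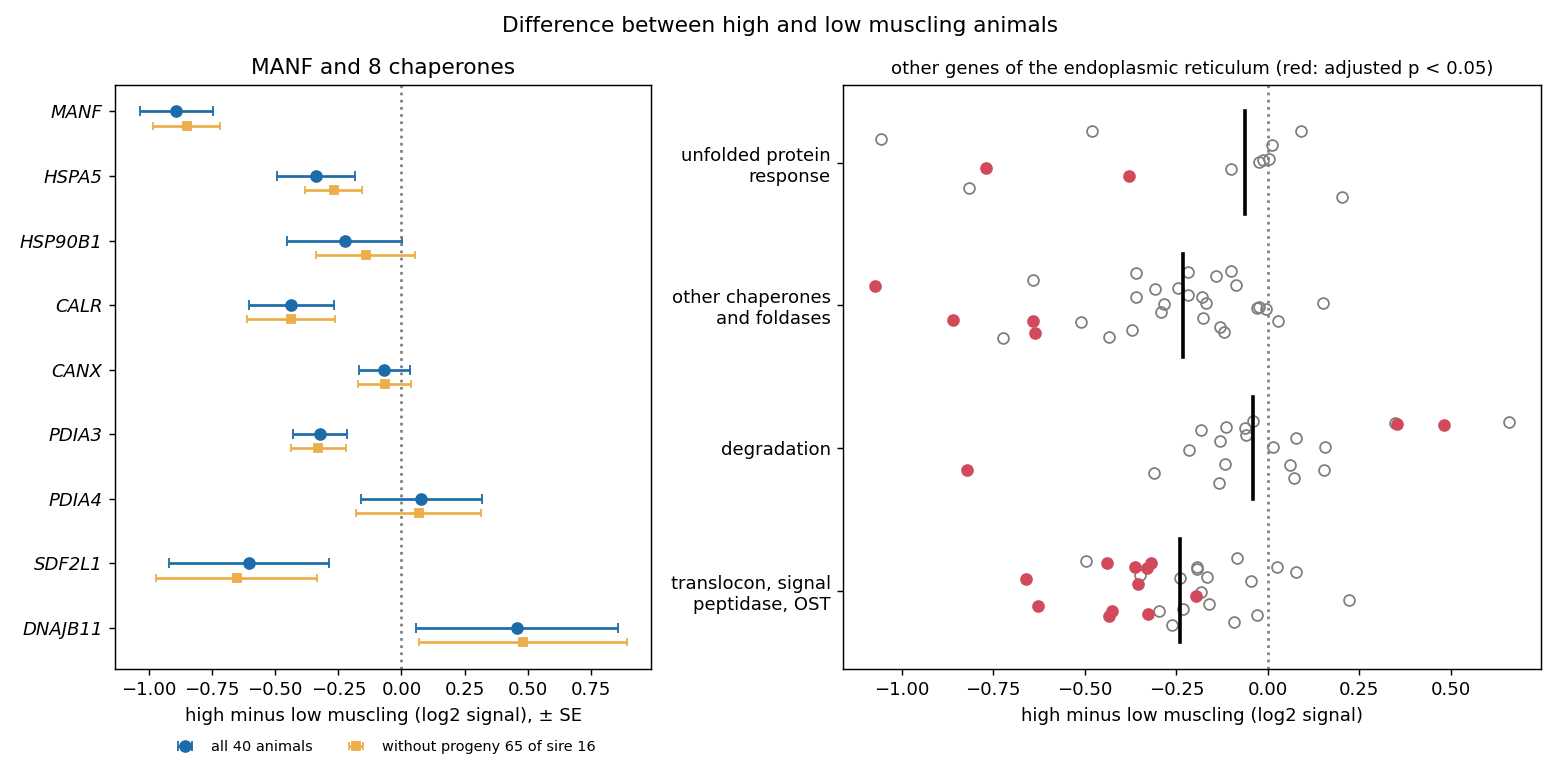
Left, high minus low muscling difference in log2 signal (± SE) of the 9 genes in all 40 animals (circles) and without progeny 65 of sire 16 (squares). Right, the same difference for each of 92 other ER genes in 4 lists, with genes at an adjusted p under 0.05 filled red and the list median as a black bar. MANF, at -0.89, is the most negative of the 9, and 11 of the 29 translocon and oligosaccharyltransferase genes are filled on the negative side.

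Other genes of the ER were taken from 4 lists, none of which holds any of the 10 genes. The lists were written from general knowledge, but with earlier results of these data known. Their counts are therefore a description and no independent support for the differences of the 10 genes. Of 92 list genes detected, 18 were lower and 2 higher in high muscling animals (adjusted p under 0.05), where 5.5% of all genes tested were lower and 2.28% higher. The median difference was -0.18. Without progeny 65 of sire 16 the counts were 18 lower and 1 higher, and 17 of the 20 genes still passed. The translocon, signal peptidase and oligosaccharyltransferase, which bring nascent chains into the ER and glycosylate them, had 11 of 29 genes lower and 0 higher (10 lower without progeny 65, when SPCS1 had an adjusted p of 0.0612). The largest of these differences were those of DDOST (-0.66, SE 0.14, adjusted p = 0.00222), a subunit of the oligosaccharyltransferase, and SEC61B (-0.63, SE 0.15, adjusted p = 0.00929), a subunit of the translocation channel. DDOST had a mean signal of 497 ± 118 in high and 762 ± 154 in low muscling animals. SPCS2, a subunit of signal peptidase, had the smallest p of this list (-0.36, SE 0.07, adjusted p = 0.00107). The other 8 were SEC61G, SSR2, SSR4, SPCS1, RPN2, DAD1, SRP14 and TRAM1, with differences of -0.20 to -0.44. The list median was -0.24.

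The other chaperones, foldases and retention receptors of the ER had 4 of 30 genes lower and 0 higher (6 lower without progeny 65, when TMX1 and NUCB2 also passed). Their median was -0.23, with 28 of 30 differences below 0. Over all 6360 genes detected the median was -0.04, with 3551 differences below 0. Of the 4, SERPINH1 (-1.07, SE 0.24, adjusted p = 0.0045), PPIB (-0.64, SE 0.13, adjusted p = 0.00154) and FKBP10 (-0.64, SE 0.19, adjusted p = 0.0359) are known for their part in folding collagen. The remaining one, DNAJB9 (-0.86, SE 0.20, adjusted p = 0.00567), is a co-chaperone of HSPA5. SERPINH1 had a mean signal of 394 ± 153 in high and 855 ± 331 in low muscling animals, and collagen transcripts differed in the same direction, as given above. Among the 12 sensors and transcription factors of the UPR that were detected, EIF2S1 and TRIB3 were lower. EIF2S1 (-0.38, SE 0.11, adjusted p = 0.023) is the translation factor that the sensor kinase PERK phosphorylates, and TRIB3 (-0.77, SE 0.24, adjusted p = 0.041) is a pseudokinase. PERK itself (EIF2AK3) was below the filter, with a mean signal of 55.1. ERN1, ATF6 and XBP1 had no probe set with a single symbol, so these genes are not among the 12. TRIB3 did not pass without progeny 65 of sire 16 (-0.74, SE 0.24, adjusted p = 0.0538). DDIT3 (CHOP), at -0.81 (SE 0.29, adjusted p = 0.0739), and ATF4, at 0.09 (SE 0.09, adjusted p = 0.622), did not pass.

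Degradation from the ER went in both directions. SELENOK, a selenoprotein of the ER membrane, was lower (-0.82, SE 0.19, adjusted p = 0.00617). EDEM3 (0.48, SE 0.12, adjusted p = 0.00858), which trims mannose from misfolded glycoproteins, and SEL1L (0.35, SE 0.11, adjusted p = 0.0454), the adaptor of the ubiquitin ligase HRD1, were higher. SEL1L did not pass without progeny 65 (0.33, SE 0.11, adjusted p = 0.0583). The other 18 of the 21 genes did not pass. The count of 18 lower genes over the 4 lists depended on single families, being 2 without the progeny of sire 16, 2 without those of sire 5, 8 without sire 2, 10 without sire 7 and 29 without sire 17. The count over all genes moved alike, from 495 called in either direction to 29 without sire 16, 23 without sire 5, 290 without sire 2, 272 without sire 7 and 1221 without sire 17. With the 6 sire means as the samples it was 0, as it was for all genes, of which 886 had an unadjusted p under 0.05.

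Several of these genes also differed between families of 1 muscling class. Within high muscling 16 of the 92 list genes passed the F-test and within low muscling 10 of 92, against 14.2% and 10.5% of all genes. These counts are near the shares over all genes and do not set the list genes apart. The families are therefore described gene by gene. The progeny of sire 17 stood apart from the other low muscling families in PPIB, with a mean signal of 1378 ± 129 against 2312 ± 381 for sire 16 and 2396 ± 317 for sire 5 (adjusted p = 0.000173). The same held for SEC61G, at 4425 ± 359 against 6200 ± 717 and 6431 ± 991 (adjusted p = 0.00142), SPCS1, at 3166 ± 255 against 4017 ± 167 and 3911 ± 346 (adjusted p = 0.00157), and ERP29, at 448 ± 27.2 against 650 ± 98.8 and 744 ± 148 (adjusted p = 0.00154). The family of sire 17 was the lowest of the 3 for these 4 genes, whereas for MANF it lay between the other 2 and for HSPA5 it was the highest. For PPIB its mean was near those of high muscling sires 11, 2 and 7 (1272, 1323 and 1315). For SEC61G it was below that of sire 11 (4996), and for ERP29 below those of sires 2 and 7 (538 and 632). For DNAJB9 (1477 ± 280) and SELENOK (1462 ± 353) it lay above all 3 high muscling families. HERPUD1, a UPR target that takes part in degradation, was also lowest in sire 17 (827 ± 21.1, adjusted p = 0.0497).

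SEL1L differed between families in both classes. It was highest in sire 11 of the high muscling sires (1529 ± 149, adjusted p = 0.00162) and in sire 17 of the low muscling sires (1238 ± 223, adjusted p = 0.00619). Within high muscling the progeny of sire 11 were low in OS9, a lectin of the degradation pathway (378 ± 59.3 against 685 ± 186 for sire 2 and 689 ± 136 for sire 7, adjusted p = 0.0027). They were also low in SRPRA, a subunit of the signal recognition particle receptor (337 ± 48.3 against 934 ± 453 and 532 ± 149, adjusted p = 0.00101), in TMX2 (157 ± 34.4, adjusted p = 0.00967) and in TRIB3 (39.2 ± 17.4, adjusted p = 0.00807). They were high in NFYB, a subunit of the factor NF-Y that acts at UPR target promoters (974 ± 102, adjusted p = 0.00319). The family that was highest in HSP90B1 among the high muscling sires was thus high in some ER genes and low in others.

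Variation among progeny of the same sire, which the grouping by muscling does not use, was examined by fitting each gene on the log2 signal of MANF or of HSPA5 with sire means as further terms (limma, adjusted over 6359 genes). MANF and HSPA5 rose together. With sire means removed, Pearson r was 0.79 and Spearman rho 0.78 over 40 animals, each with p = 1e-05 by 100000 permutations within sires (two-sided), the smallest p these can give. Without progeny 65 of sire 16 r was 0.75 and rho 0.78 (n = 39, permutation p = 1e-05 for each). Without the 2 animals farthest from the median of MANF, which were progeny 65 of sire 16 and progeny 58 of sire 7, r was 0.71 (permutation p = 1e-05). In the fit across all genes the adjusted p was 0.000101, or 0.00391 without progeny 65. HSPA5 had the highest r with MANF of all 6359 genes, with and without that animal.

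Taken separately, r was 0.72 in high muscling (n = 19, permutation p = 0.00254) and 0.84 in low muscling animals (n = 21, permutation p = 1e-05). In the fit across all genes on high muscling animals alone the relation did not pass (adjusted p = 0.158). Within single families r was 0.76 (sire 11), 0.41 (sire 2), 0.85 (sire 7), 0.85 (sire 16), 0.81 (sire 17) and 0.87 (sire 5), on 4 to 8 animals each. Family 2, which had the lowest r, also had the narrowest range of HSPA5 signals, 3021 to 3651. The slope of HSPA5 on MANF was 0.89 (SE 0.12, log2 per log2), and 0.64 (SE 0.11) without progeny 65. The separate HSPA5 probe set of mean signal 1152 had r = 0.68 with MANF (0.55 without progeny 65) and r = 0.90 with the main HSPA5 probe set. The dim one had r = 0.01 with MANF. When the 3 HSPA5 probe sets were averaged, r with MANF was 0.46 (adjusted p = 0.157).

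**Figure D3:**
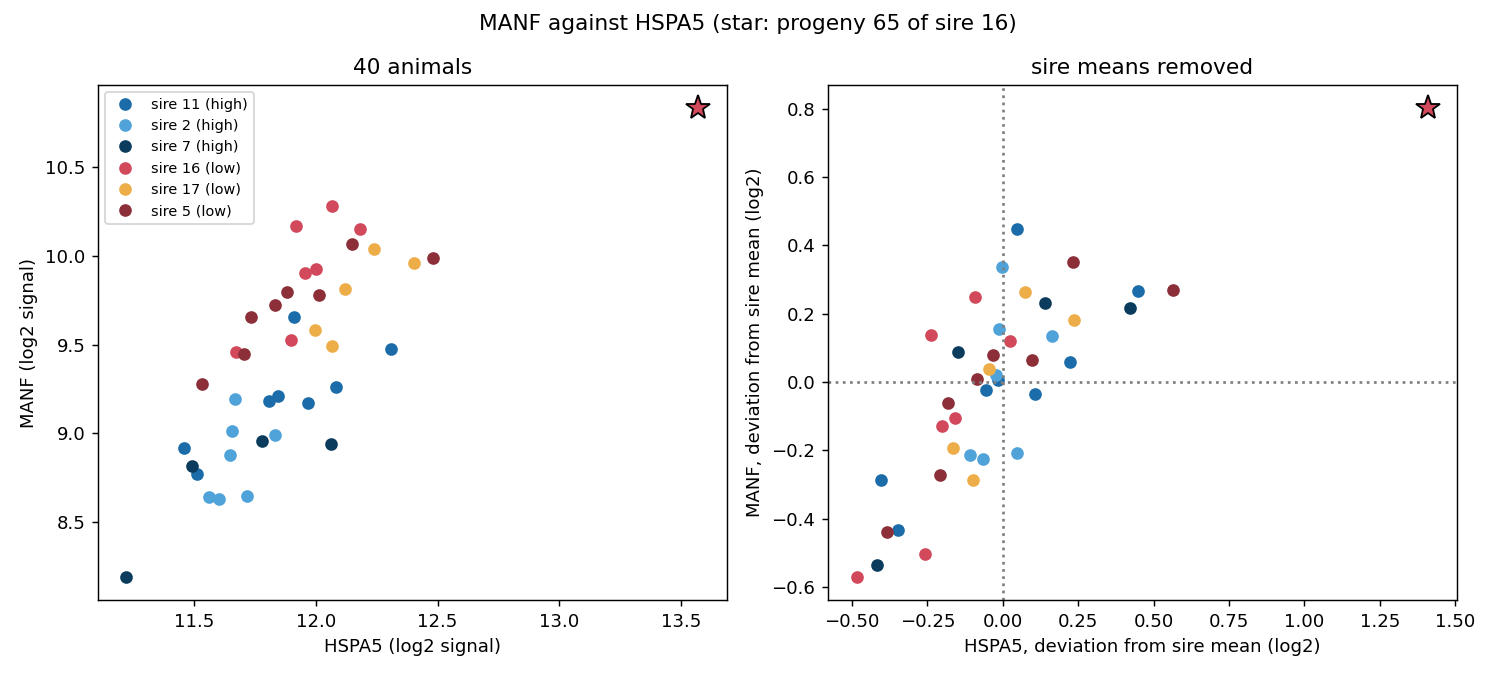
MANF against HSPA5 log2 signal in 40 animals coloured by sire (left) and the same with each family's mean removed (right), where the star is progeny 65 of sire 16. Low muscling families have higher mean MANF signals than high muscling families, and within families the 2 genes rise together (r = 0.79, and 0.75 without the starred animal).

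Of the other 7 members, HSP90B1 passed the test with HSPA5 (r = 0.67, adjusted p = 0.00199), which rested on progeny 65 of sire 16. Without that animal r was 0.39 (adjusted p = 0.368). The members that passed were thus 1 of 8 with MANF, where 0.708% of all genes passed with a positive slope, and 2 of 8 with HSPA5, where 0.692% did. Without progeny 65 CALR passed with HSPA5 (r = 0.63, adjusted p = 0.041) and narrowly with MANF (r = 0.57, adjusted p = 0.0499), and PDIA3 passed with MANF (r = 0.63, adjusted p = 0.0356). With all animals these 3 values were 0.39, 0.48 and 0.48 (adjusted p = 0.261, 0.111 and 0.141). The members that passed without progeny 65 were therefore 3 of 8 with MANF and 2 of 8 with HSPA5, against 0.362% and 0.11% of all genes. CANX did not pass in either set of animals (r = 0.33 with MANF and 0.29 with HSPA5, or 0.39 and 0.46 without progeny 65). For PDIA4, SDF2L1 and DNAJB11 r with either gene was between -0.18 and 0.01.

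The calnexin cycle genes were related to each other whether or not progeny 65 was kept. With sire means removed, r was 0.70 for CALR and PDIA3, 0.66 for CALR and CANX and 0.60 for CANX and PDIA3, and each moved by less than 0.01 without that animal. In high muscling animals the 3 values were 0.74, 0.70 and 0.70, and in low muscling animals 0.65, 0.59 and 0.47. The 3 genes also shared a relation to an array measure, the mean log2 signal of the spiked controls. With sire means removed, r with it was -0.51 for CALR, -0.46 for CANX and -0.34 for PDIA3. It was 0.08 for MANF, 0.07 for HSPA5 and -0.06 for HSP90B1, with a median of -0.008 over all genes detected. Its part in the relations between the genes was not tested. Among MANF, HSPA5, HSP90B1, CALR, CANX and PDIA3, the 6 genes above the detection limit on every array, all 15 pairs had a positive r, with a median of 0.48 (0.57 without progeny 65). The median over all pairs of detected genes was 0.0019. In high muscling animals the 15 pairs ranged from 0.56 to 0.84, with a median of 0.70. In low muscling animals without progeny 65 they ranged from -0.14 to 0.78, with a median of 0.37. A difference in slope between the muscling groups passed the test for 0 of 8 members with MANF and 0 of 8 with HSPA5. Over all 6359 genes 0 passed with MANF and 1 with HSPA5, so the counts of members say little. The smallest adjusted p among the members was that of CALR on HSPA5 (slope 1.40 in high and 0.09 in low muscling, difference 1.3, SE 0.33, adjusted p = 0.132). Without progeny 65 the low muscling slope was 0.53 and the difference 0.87 (SE 0.41, adjusted p = 0.829). The 21 pairs that include PDIA4, SDF2L1 or DNAJB11 ranged from -0.29 to 0.16, with a median of -0.06.

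**Figure D4:**
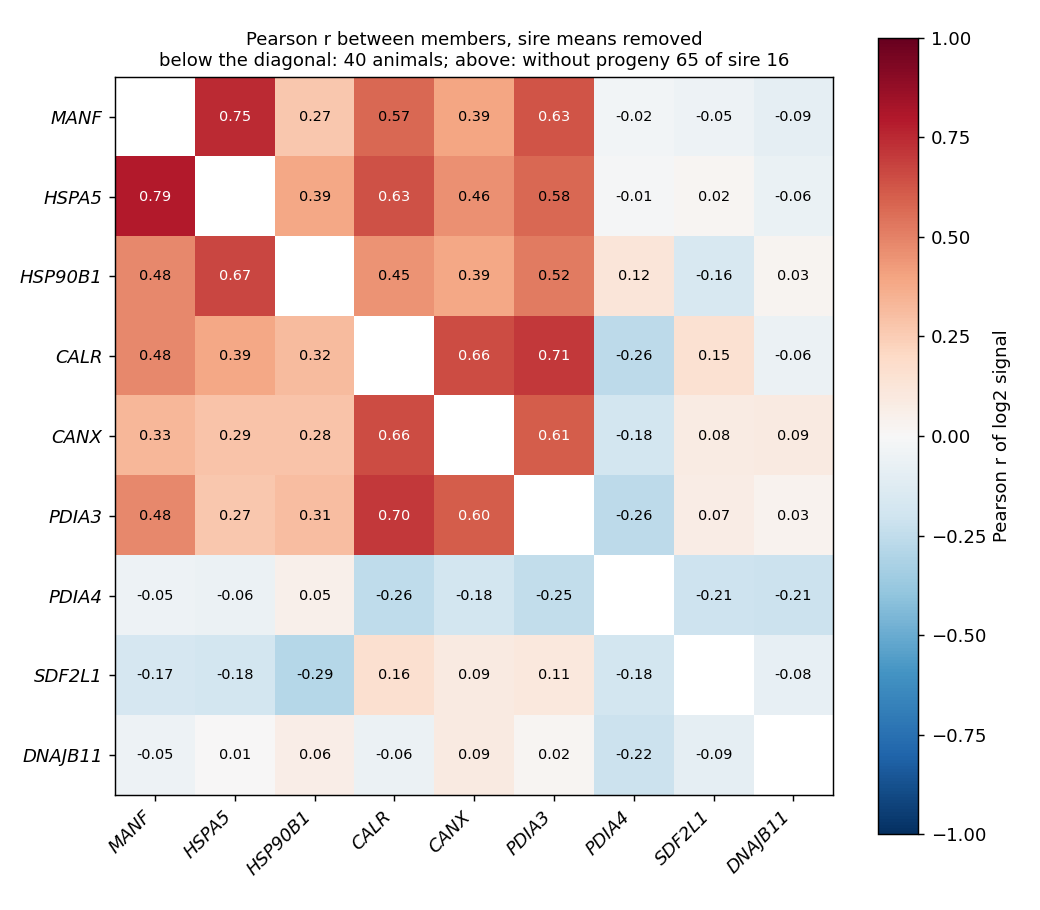
Pearson r of log2 signal between the 9 genes with sire means removed, in 40 animals below the diagonal and without progeny 65 of sire 16 above it. MANF and HSPA5 have the highest value on each side (0.79 and 0.75), the 3 pairs of CALR, CANX and PDIA3 lie between 0.60 and 0.71 on both, and the pairs with PDIA4, SDF2L1 or DNAJB11 lie between -0.29 and 0.16.

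Progeny 65 of sire 16 had a MANF signal of 1824, against 292 to 1243 in the other 39 animals. HSPA5 was 12150 against 2391 to 5714, and HSP90B1 was 3914 against 447 to 1995. The animal was the highest of all for these 3 genes, at 2.59, 3.22 and 3.77 times the median of the others. For the calnexin cycle it was not extreme, with CALR at 1087 (median of the others 887), CANX at 625.1 (592.3) and PDIA3 at 2292 (2301). SDF2L1, at 42, was below the median of the others (76.6). Some genes of the cytosolic and general stress response, chosen after their values were seen, were also highest in this animal. ATF3, a transcription factor induced by stress, had 10818 against 112 to 1640. HSPA1A, the inducible cytosolic Hsp70, had 16867 against 1330 to 3445, and DNAJA1, a cytosolic partner of Hsp70, had 1871 against 176 to 989. HSPB1, a small cytosolic heat shock protein, was not the highest, with 25086 against 9152 to 28579. Its summed fibroblast signal, 9029, was the lowest of the low muscling group.

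The genes most like MANF within sires after HSPA5 (r over 40 animals with sire means removed) were ELOVL5, a fatty acid elongase (0.73), SRSF7, a splicing factor (0.73), DNAJA1 (0.71) and ATF3 (0.69). All 4 passed the test with and without progeny 65 (adjusted p = 0.0239 to 0.0356 without). The genes most like HSPA5 were ATF3 (0.80), MANF (0.79), TRIB1, a pseudokinase (0.78), AKIRIN2, a nuclear cofactor (0.77), and NFIL3, a transcriptional repressor (0.74). Of these only MANF and ATF3 passed without progeny 65 (r = 0.75 and 0.71, adjusted p = 0.00332 for both), while TRIB1, AKIRIN2 and NFIL3 had r = 0.48, 0.64 and 0.43 (adjusted p = 0.231, 0.0542 and 0.299).

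Of the 92 list genes, 3 rose with MANF within sires and 2 with HSPA5, against 0.708% and 0.692% of all genes, and 0 fell with either. ATF3 and PPP1R15A, the phosphatase subunit that reverses phosphorylation of EIF2S1, rose with both. Without progeny 65 ATF3 passed with both genes, and PPP1R15A passed with neither (r = 0.48 with MANF, adjusted p = 0.124, and 0.38 with HSPA5, adjusted p = 0.385). SERPINH1 rose with MANF (r = 0.67, adjusted p = 0.0044, and 0.66 with adjusted p = 0.0144 without progeny 65). None of the 29 translocon and oligosaccharyltransferase genes passed with MANF or HSPA5 in either set of animals. Of all genes, 0.708% and 0.692% passed with a positive slope (0.362% and 0.11% without progeny 65), so 0 of 29 does not set these genes apart. Their median r was -0.04 for both in all animals. Between the muscling groups, 11 of the 29 differed in the same direction as MANF.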

How the data were processed

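The deposited values are MAS5 signals, intensities on a linear scale, 1 per probe set and array, made by the authors from biotinylated cRNA of total RNA and scaled so that the mean of each array, with 2% trimmed at either end, is 200. No version of MAS5 is given in the sources used here. The platform annotation gave 1 symbol for 13292 of 24016 probe sets other than controls, several for 86 and none for 10638. Signals were used as log2 without a pseudocount. The muscling groups were contrasted in limma 3.58.1 (R 4.3.3), with sire as a random block (correlation 0.135). Sire families were compared with a moderated F-test, and slopes on MANF or HSPA5 were fitted with sire as a fixed term. P-values were adjusted (Benjamini-Hochberg) over all genes tested, at 0.05. Precision within sires is set by the 40 arrays, 1 per animal. That of the contrast between muscling groups is limited by the 6 sires. The contrast of muscling groups, the F-test of sire families and the slopes on MANF were run on simulated data. The fit of slope differences between the groups was not.

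The members and gene lists were chosen with earlier results of these data known. The 4 lists were written from general knowledge. List genes were named by the smallest p of each comparison (2 per list) or by passing it, and the 5 genes with the highest r with MANF and with HSPA5 were named. Markers of fibroblast, adipocyte, endothelial, leukocyte, plasma, erythroid, satellite and Schwann cells were examined. Between the muscling groups, markers other than those of fibroblasts passed for AIF1 (leukocyte) and JCHAIN (plasma cell), both lower in high muscling (FCER1G, a leukocyte marker, also passed without progeny 65 of sire 16), and 0 adipocyte, endothelial, erythroid, satellite or Schwann cell markers passed. Alternatives were quantile normalization, median centring, a pseudocount of 16, a floor, no filter, averaged probe sets, other sire terms and omission of families or animals.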

Additional observations from a re-analysis of the deposited data

Results flagged for a closer look

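In each of the 6 families, the highest and the lowest animal were set against the rest of the family for each of the 9 genes, 54 families in all, by the gap to the nearest other animal as a share of the family's range. Chance alone marks about 1 in 20 such families, and 4 were marked. Progeny 65 of sire 16 was marked for HSPA5 (12150.1, others 3265.6 to 4644.5) and for HSP90B1 (3914, others 719.4 to 1312.2). Progeny 99 of sire 16 had a low PDIA4 signal (35.9, others 88.4 to 158.9). Progeny 91 of sire 11 had a low DNAJB11 signal (22.5, others 81.3 to 164.8).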

How the results depend on the processing

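The number of genes of the 4 lists lower in high muscling (18) was 37 without the sire block, 0 with sire means as samples, and 2, 29, 8, 2 and 10 without the progeny of sires 16, 17, 2, 5 and 7. The number higher (2) was 1 without progeny 65 of sire 16 or without sire 11, and 0 without sire 16, without sire 5 or with sire means as samples. Within high muscling, members that differed between sires were 2 after median centring in place of 1. Leaving out 1 animal of the smallest family gave 1 member (high) and 0 (low), and 13 to 16 and 7 to 11 list genes. Members rising with MANF were 4 with the muscling group as the term or no sire term, 3 without progeny 65, and 0 with averaged probe sets or high muscling alone. Those rising with HSPA5 were 0 with averaged probe sets, and 1 without the 2 farthest animals, without sire 16 or with high muscling alone. The r of MANF and HSPA5 lay between 0.46 and 0.84 over 19 alternatives. It stayed past the threshold in 17 and not with averaged probe sets (0.46) or in high muscling alone (0.72, n = 19, adjusted p = 0.158). The causes of these changes were not tested. Signals near the detection limit bound what PDIA4, SDF2L1 and DNAJB11 can show. The settings without progeny 65 were chosen after seeing the data. No paired analysis was possible because progeny numbers are not shared between groups.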
